A study of Homo sapiens with 12 samples.

Results

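The 10 imprinted genes DLK1, MEG3, H19, PEG3, PEG10, NNAT, MEST, SNRPN, GRB10 and PLAGL1 were followed across 4 culture conditions of 201B7, an established human induced pluripotent stem cell (iPSC) line. They were chosen by gene name and are 10 of the 60617 genes in the TPM table and of the 58575 genes with a row of read counts. RNA-Seq was performed on cells harvested on Day 5, with 3 libraries per condition and 12 in all. Cond 1 was the control. Cond 2, labelled Low nutrient, received StemFit medium that had been heated at 56 °C for 30 min. Cond 3, labelled Differentiation, received DMEM containing 10% FBS and, at 1% each, GlutaMax and MEM NEAA, and in Cond 4, labelled Physical stimulas, cells were pipetted 20 times at passage. The study describes the heated medium as given from an earlier day than the FBS medium. Medium and length of exposure therefore cannot be told apart between Cond 3 and Cond 2. The labels give skin as the tissue and iPS as the cell type. All libraries come from this single cell line. The study describes plates with a well for each condition, in an arrangement carried out 3 times, and ties no library to a plate. It calls its replicates technical, so p-values measure the spread between these libraries only.

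An imprinted gene is transcribed mainly from the copy of 1 parent. The parental copies differ in DNA methylation at CpG dinucleotides of a control region, a mark laid down in the germ line, and the methylated copy can be the silent or the active one depending on the gene. Imprinted genes lie in clusters, and within a cluster neighbours can be expressed from opposite parental copies. DLK1, a membrane protein related to Notch ligands, is paternally expressed, and MEG3, a long noncoding RNA of the same cluster on chromosome 14, is maternally expressed. MEG3 and H19 are commonly examined in pluripotent stem cell lines because their imprints can be altered during reprogramming or culture. Counts and TPM do not tell the parental copies apart, so the values below are total RNA of both copies.

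Libraries held from 16441148 to 21871503 counts. Replicates of a condition differed by more than counting error, with a chi-square over its degrees of freedom between 4.19 and 10.2 for the 12 pairs, so no library was counted as a duplicate. The 10 pluripotent stem cell markers were all detected and summed to between 7070 and 9090 TPM in every library, a sum carried mainly by PODXL, LIN28A and DNMT3B. Single markers went in both directions. NANOG fell to 0.471 of the control in Cond 2 and 0.224 in Cond 3 (adjusted p = 6.43e-10 and 1.4e-14), TDGF1 to 0.354 and 0.52 and L1TD1 to 0.603 and 0.744, while SOX2 rose 1.35-fold and 1.36-fold and SALL4 1.25-fold and 1.29-fold, all with an adjusted p under 0.05. The fibroblast markers DCN, LUM and COL3A1 stayed under 1 TPM in every library, while the sum of the 8 fibroblast markers was between 265 and 624 TPM, most of it from COL1A1, COL1A2 and THY1.

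Promoter windows of MEG3 and H19 are shown because MEG3 was expressed in all libraries and H19 was at or near 0. CpG positions, in capitals here, are sites that can be methylated. The windows were not matched to the control regions of the imprints, and methylation was not measured. Each window runs from 250 bases before to 50 bases after the start of a RefSeq transcript on GRCh38.p14, which lies inside the longer GENCODE gene given further on, and is written 5′ to 3′ on the strand of the gene. The MEG3 window is the most upstream of 3 overlapping ones at chr14:100825858-100826157 on the + strand, and the H19 window lies at chr11:2001217-2001516 on the - strand.
MEG3: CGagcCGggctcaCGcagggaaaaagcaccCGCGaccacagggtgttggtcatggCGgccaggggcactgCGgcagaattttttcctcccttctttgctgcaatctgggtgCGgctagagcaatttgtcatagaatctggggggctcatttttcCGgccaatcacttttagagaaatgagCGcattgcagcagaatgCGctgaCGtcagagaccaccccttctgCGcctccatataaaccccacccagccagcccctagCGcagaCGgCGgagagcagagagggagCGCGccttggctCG
H19: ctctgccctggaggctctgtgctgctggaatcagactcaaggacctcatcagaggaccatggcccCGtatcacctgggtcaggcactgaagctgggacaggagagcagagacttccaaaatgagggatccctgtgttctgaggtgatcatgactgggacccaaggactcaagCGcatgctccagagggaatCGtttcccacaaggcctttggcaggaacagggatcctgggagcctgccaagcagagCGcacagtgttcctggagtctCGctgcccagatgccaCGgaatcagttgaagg
The MEG3 window held 19 CpG and the H19 window 6, beside a median of 14 over 35116 promoter windows of the same length, of which 42.9% held at least as many as MEG3 and 66.3% at least as many as H19. The cAMP response element TGACGTCA, searched on both strands, occurred once in the MEG3 window, 50 bases before that start, and in 1.85% of all windows. The TATA box letters TATAAA occurred once in the MEG3 window, 18 bases before the start, and in 11.5% of all windows. Neither motif was found in the H19 window. TGCCGC, the core of the motif of ZFP57, a protein that binds methylated control regions, occurred once in the MEG3 window and not in that of H19, and in 16.7% of all windows. Windows were found for 6 of the 10 genes. DLK1, NNAT, PEG3 and PEG10 had none. Over their windows, MEST held 13 to 25 CpG, SNRPN 2 to 18, GRB10 3 to 49 and PLAGL1 2 to 39, all without TGACGTCA. TATAAA was absent from the windows of MEST and SNRPN and present in a window of GRB10 and a window of PLAGL1. TGCCGC occurred in windows of MEST, SNRPN, GRB10 and PLAGL1, with up to 3 copies in a window of MEST. Whether CpG number or motifs go with expression was not tested.

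In Cond 2, DLK1 rose 20.7-fold and NNAT 3.69-fold over Cond 1, and MEST and PEG10 rose by smaller amounts. In Cond 3, PEG10 and NNAT rose 1.71-fold and 1.73-fold, while SNRPN fell to 0.737 and GRB10 to 0.882 of the control. MEG3 and PLAGL1 passed the test in no comparison, and H19 and PEG3 had too few reads to be tested. Differentially expressed genes (DEGs) were those with an adjusted p-value under 0.05 in the quasi-likelihood test of edgeR and a fold change above 2. By this rule, 2 of the 8 tested genes, DLK1 and NNAT, were DEGs in Cond 2, both higher, beside 4.34% of all 17747 tested genes as DEGs and 1.84% as higher DEGs. On the adjusted p-value alone 4 of 8 passed in Cond 2, all higher, beside 20.9% of all genes, and 4 of 8 in Cond 3, with 2 higher and 2 lower, beside 38.4%. No DEG was found among the 8 in Cond 3, where 8.16% of all genes were DEGs. At an unadjusted p under 0.05, 5 of 8 passed in Cond 3 with edgeR and 5 of the 10 entered with DESeq2. The share of all genes at this unadjusted threshold was not computed for any comparison. On the adjusted p-value, the share of the 8 genes that passed in Cond 3 was close to that of all genes. The median log2 fold change of the 8 genes was 0.47 in Cond 2 and -0.15 in Cond 3, beside medians over all tested genes of 0.00018 and -0.0064.

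**Figure D1:**
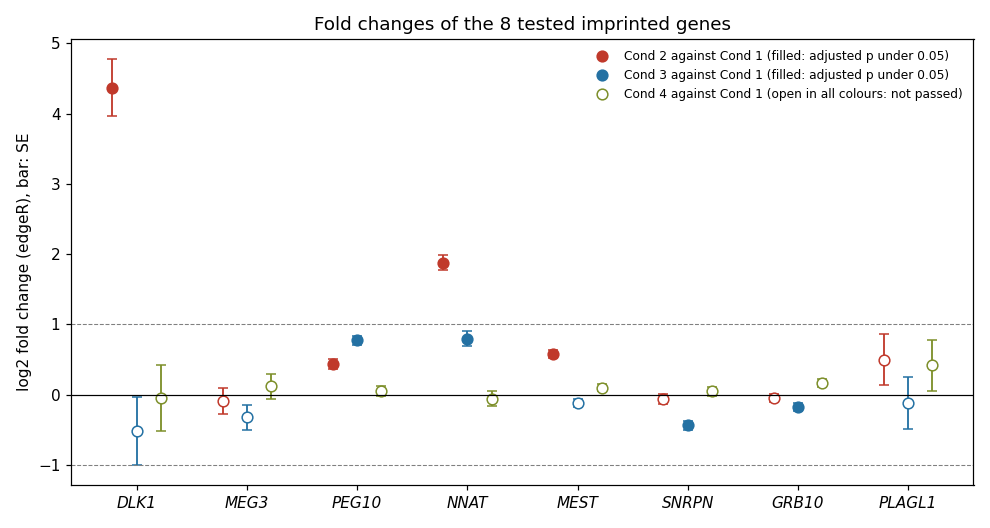
Log2 fold changes (vertical axis) of the 8 tested genes in Cond 2, Cond 3 and Cond 4 against Cond 1 from edgeR, with the standard error as a bar and the fold change threshold of 2 as dashed lines. Only DLK1 (4.37) and NNAT (1.88) in Cond 2 lie beyond the dashed lines, and the open points of Cond 4 all lie near 0 or have wide bars.

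DLK1 (ENSG00000185559, chromosome 14, 100725705 to 100738224 of GRCh38, + strand) was at 1.28, 5.41 and 9.95 TPM in the libraries of Cond 1 and at 160, 95.2 and 113 TPM in those of Cond 2. In reads, these were 37, 134 and 306 against 4253, 2853 and 2858. The lowest library of Cond 2 was far above the highest of Cond 1, and the groups did not overlap. In bulk libraries, more cells that express DLK1 and more DLK1 RNA per cell cannot be told apart. The log2 fold change was 4.37 (SE 0.406, adjusted p = 2.78e-08). It was 3.89 without Cond 1 replicate 1 and 5.17 without Cond 1 replicate 3, so that the size of the change, but not the call, depended on which control libraries were used.

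Of the 8 tested genes, DLK1 was the most uneven among replicates of the control. Its highest Cond 1 library was 7.77 times its lowest, while the median of this ratio over 15516 genes with a mean of at least 1 TPM was 1.19 and 0.4% of them were at least as uneven. Cond 4 was uneven in the same way, with 1.57, 3.97 and 10.6 TPM and a ratio of 6.75. The 3 libraries of Cond 3, at 4.07, 3.27 and 4.67 TPM, lay close together and inside the range of Cond 1. The log2 fold change of DLK1 was -0.52 in Cond 3 (SE 0.488, adjusted p = 0.44) and turned to 0.287 without Cond 1 replicate 3. Between Cond 3 and Cond 2, which also differ in length of exposure, DLK1 was 29.6-fold lower in Cond 3 (log2 fold change -4.89, adjusted p = 4.49e-09).

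**Figure D2:**
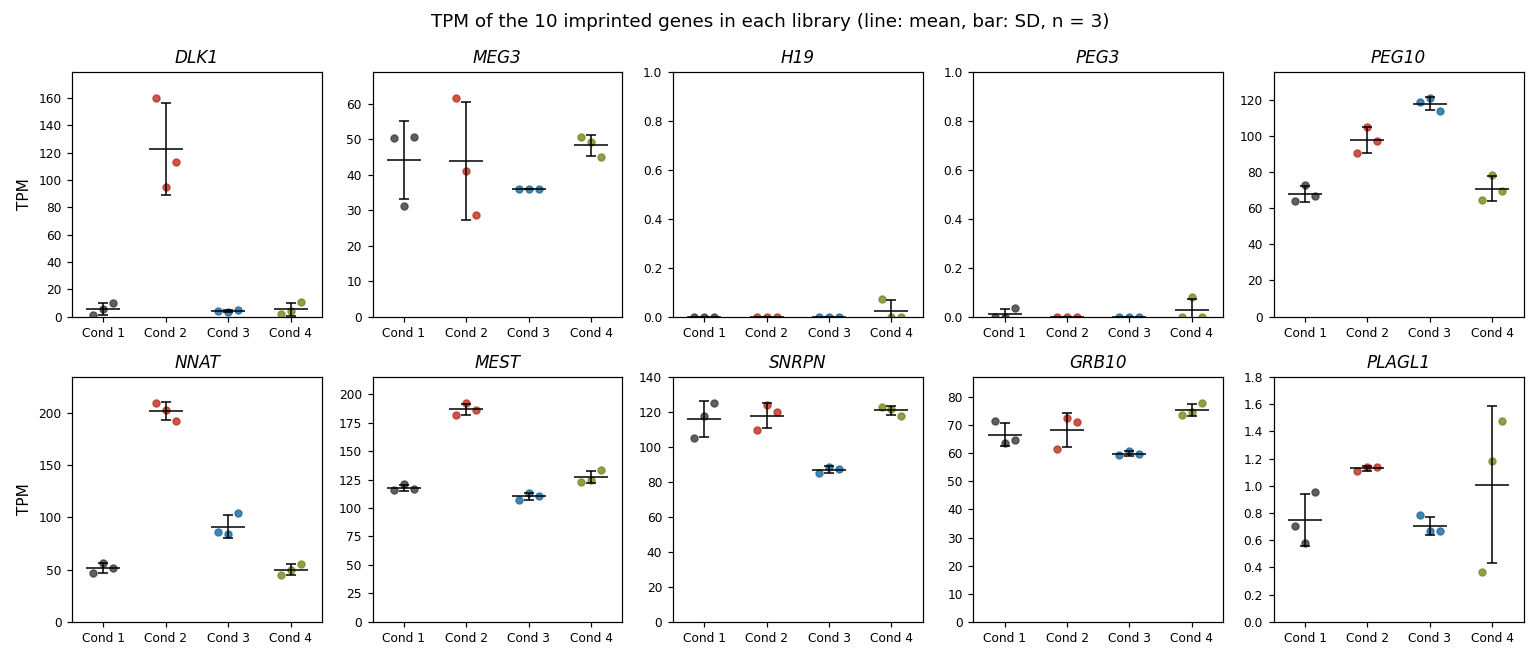
TPM (vertical axis, from 0) of each of the 10 genes in the 3 libraries of Cond 1 to Cond 4, with the mean as a line and the SD as a bar. DLK1 and NNAT stand highest in Cond 2, PEG10 in Cond 3, and H19 and PEG3 stay under 0.1 TPM in every library.

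MEG3 (ENSG00000214548, chromosome 14, 100779410 to 100861031, + strand) was at 50.4, 31.3 and 50.6 TPM in Cond 1 and at 61.6, 40.9 and 28.7 TPM in Cond 2. The range of Cond 2 enclosed that of Cond 1, with a log2 fold change of -0.09 (SE 0.179, adjusted p = 0.778), whose sign changed when single libraries were left out. In Cond 3 the libraries held 36.0, 35.9 and 36.1 TPM, the closest agreement of any condition, at a ratio of highest to lowest of 1.01. This was inside the range of Cond 1, and the log2 fold change of -0.32 did not pass (SE 0.179, adjusted p = 0.165). Cond 4 held 50.7, 49.2 and 44.9 TPM. Its counts ranged from 3207 to 7235 over the 12 libraries, without a called difference between conditions. Its annotated exons overlap a same-strand transcript of the cluster, MIR493HG, over 108 bases, 0.5% of their length.

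The ratio of DLK1 to MEG3 in the same library puts the cluster's paternally and maternally expressed genes side by side. A ratio of counts also depends on gene length, so it is read only between conditions. As log2 of TPM plus 0.1, the ratio was -5.19, -2.51 and -2.33 in Cond 1 and 1.38, 1.22 and 1.98 in Cond 2. As log2 of counts plus 0.5, it was -7.43, -4.67 and -4.49 in Cond 1 and -0.77, -0.93 and -0.17 in Cond 2. All 3 ratios of Cond 2 were above all of Cond 1, by 4.91 in the mean (exact two-sided permutation p = 0.1, adjusted to 0.13 over 4 tests, where 0.1 is the smallest p that 3 libraries against 3 allow). In Cond 3 it was -5.28, -5.59 and -5.09, within the range of Cond 1 (exact permutation p = 1).

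Other genes of the DLK1-DIO3 cluster were at much lower levels. RTL1, a retrotransposon-derived gene that is paternally expressed like DLK1, had 1, 6 and 4 reads in Cond 1 and 40, 31 and 18 in Cond 2. The libraries did not overlap and RTL1 was a DEG, with a log2 fold change of 2.92 (SE 0.799, adjusted p = 0.0104), at a mean of 1.05 TPM in Cond 2. This call was lost without Cond 1 replicate 1 and without Cond 2 replicate 1. It was kept on log2(TPM + 0.1) and lost on log2(TPM + 1), where the added 1 shrinks changes of genes near 1 TPM. RTL1 shares 1312 bases of exon, 24.3%, with MIR493HG on the opposite strand, and whether counting used the strand is not stated in the sources used here. DIO3, the deiodinase that inactivates thyroid hormone, had 0 to 2 reads in Cond 1 and 10, 2 and 5 in Cond 2, too few to be tested.

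The maternally expressed noncoding RNAs MEG8 and MEG9 followed another order. MEG8 had 38, 33 and 37 reads in Cond 1, 53, 50 and 40 in Cond 2 and 96, 99 and 89 in Cond 3. Its log2 fold change was 1.29 in Cond 3 (SE 0.246, adjusted p = 0.00022), a DEG, and 0.36 in Cond 2 (adjusted p = 0.362), at levels that stayed under 1 TPM. With limma on log2(TPM + 0.1), MEG8 was no DEG in Cond 3. On log2(TPM + 1), a gene under 1 TPM in every library cannot reach a 2-fold change. The form limited to genes with at least 1 TPM in every library left MEG8 out. MEG9 was at 6.15 ± 1.41 TPM in Cond 1 and 9.16 ± 0.94 TPM in Cond 3 (SD, n = 3), and did not pass (log2 fold change 0.54, adjusted p = 0.0685).

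**Figure D3:**
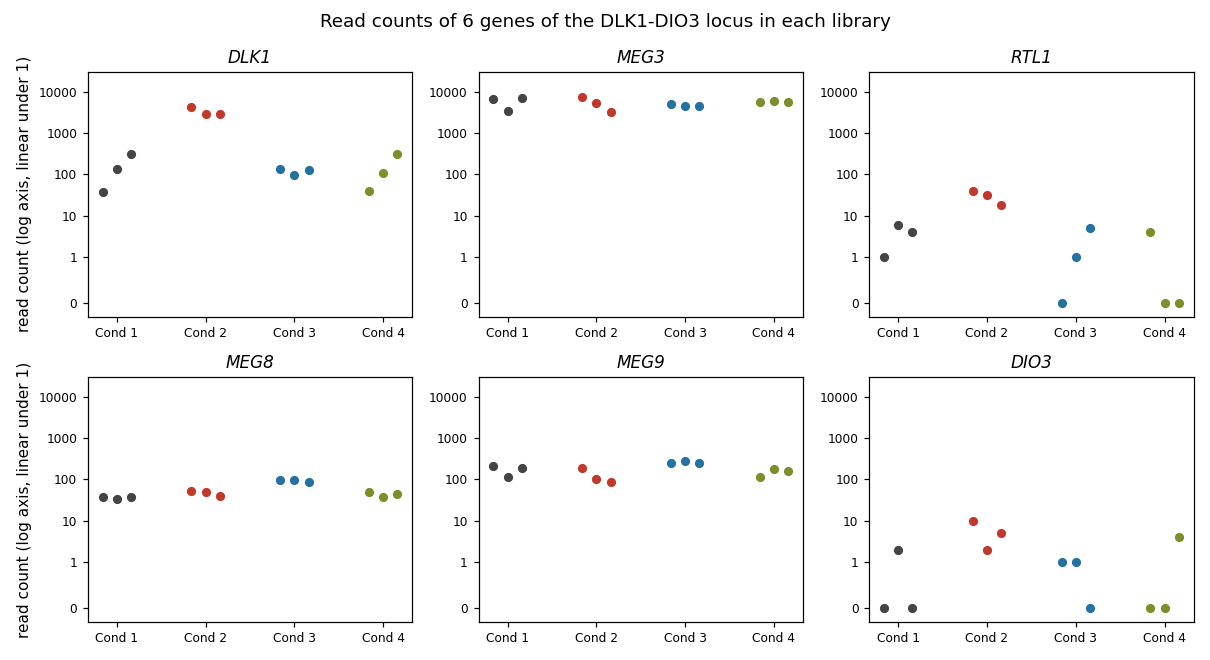
Read counts (log axis, linear under 1) of DLK1, MEG3, RTL1, MEG8, MEG9 and DIO3 in the 3 libraries of each condition. DLK1 and RTL1 are higher in every library of Cond 2 than in any of Cond 1, MEG8 is highest in Cond 3, and MEG3 stays between 3207 and 7235 reads.

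H19, the maternally expressed noncoding RNA next to IGF2, and PEG3, a paternally expressed zinc finger gene, were near absent. H19 (ENSG00000130600, chromosome 11, 1995166 to 2004552, - strand) had 1 read in 12 libraries, in Cond 4. A count of 0 allows up to 3 counts, which for H19 is 0.169 to 0.219 TPM depending on the library, and counting error is the only error this covers. PEG3 (ENSG00000198300, chromosome 19, 56810077 to 56840728, - strand) had 6 reads in all, 2 in one library of Cond 1 and 4 in one of Cond 4, and 3 counts correspond to 0.0501 to 0.0651 TPM. No fold change is given for either gene. None of the 31-base words of their transcripts was found elsewhere in the primary assembly or on an alternate haplotype. PEG3 shares 3824 exon bases, 39.1%, with a transcript on the opposite strand. Their neighbours were as low. IGF2, the growth factor gene beside H19, had 0 to 9 reads per library, and ZIM2, which shares its start with PEG3, was listed at 0 in all 12.

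NNAT (ENSG00000053438, chromosome 20, 37521206 to 37523690, + strand), a small membrane protein of developing neurons, is paternally expressed and lies within an intron of BLCAP. It was at 47.0, 56.7 and 51.1 TPM in Cond 1, at 209, 203 and 192 TPM in Cond 2 and at 85.6, 83.7 and 104 TPM in Cond 3. Neither condition overlapped the control. The log2 fold change was 1.88 in Cond 2 (SE 0.105, adjusted p = 6.51e-12) and 0.80 in Cond 3 (SE 0.107, adjusted p = 3.07e-06), and NNAT was lower in Cond 3 than in Cond 2 by 2.13-fold (adjusted p = 1.27e-08). Its host gene BLCAP was at 20.9 ± 1.4 TPM in Cond 1, 21.8 ± 2.04 TPM in Cond 2 and 20.5 ± 0.529 TPM in Cond 3 (SD, n = 3), and did not pass in either comparison (adjusted p = 0.874 and 0.65).

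PEG10 (ENSG00000242265, chromosome 7, 94656325 to 94669695, + strand), a retrotransposon-derived gene needed for the placenta, is paternally expressed and starts beside SGCE on the opposite strand. Its libraries held 64.1, 73.1 and 66.6 TPM in Cond 1, 90.8, 105 and 97.2 TPM in Cond 2 and 119, 121 and 114 TPM in Cond 3. The 3 conditions formed separate, rising ranges. The log2 fold change was 0.44 in Cond 2 (SE 0.0684, adjusted p = 4.39e-05) and 0.77 in Cond 3 (SE 0.0683, adjusted p = 7.13e-09), and Cond 3 exceeded Cond 2 by 1.26-fold (adjusted p = 0.000418). SGCE, an epsilon-sarcoglycan gene that is also paternally expressed, was at 4.2 ± 0.426 TPM in Cond 1, 4.31 ± 0.0581 TPM in Cond 2 and 3.92 ± 0.305 TPM in Cond 3 (SD, n = 3) and passed in neither (adjusted p = 0.781 and 0.322). The log2 ratio of PEG10 to SGCE counts was higher than in Cond 1 by 0.48 in Cond 2 and by 0.90 in Cond 3, without overlap (exact permutation p = 0.1 for both, adjusted to 0.13).

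MEST (ENSG00000106484, chromosome 7, 130486171 to 130506465, + strand), a paternally expressed gene of the alpha/beta hydrolase fold family, had the highest mean of the 10 genes in Cond 1, at 116, 121 and 117 TPM. In Cond 2 it reached 182, 192 and 186 TPM, above all control libraries, a log2 fold change of 0.58 (SE 0.0525, adjusted p = 2.01e-08). In Cond 3 it was at 107, 113 and 111 TPM, below all control libraries but not past the test (log2 fold change -0.12, SE 0.0528, adjusted p = 0.077). Of the 31-base words of MEST, 10.2% occur elsewhere in the genome, so part of its reads could have been assigned to copies. The antisense transcript MESTIT1 was under 1 TPM in the mean of every condition.

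SNRPN (ENSG00000128739, chromosome 15, 24823637 to 24978723, + strand) encodes a splicing protein and is paternally expressed from the Prader-Willi region. It held 105, 118 and 125 TPM in Cond 1, 110, 124 and 120 TPM in Cond 2 and 84.9, 88.8 and 87.5 TPM in Cond 3. Only Cond 3 lay outside the control range, below it, with a log2 fold change of -0.44 (SE 0.0665, adjusted p = 1.47e-05). Of its exon bases 813, or 23.9%, are shared with SNURF on the same strand, so the split of reads between the 2 genes is uncertain. Within the same region, NDN and MAGEL2, both paternally expressed, rose in Cond 3 by 0.41 and 0.64 on the log2 scale (adjusted p = 0.00024 and 0.00467), and UBE3A, which is maternally expressed in neurons, fell by 0.51 (adjusted p = 5.79e-07). Genes of this region therefore moved in both directions in Cond 3. In Cond 2 none of SNRPN, SNURF, NDN, MAGEL2 and UBE3A passed.

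GRB10 (ENSG00000106070, chromosome 7, 50590063 to 50793462, - strand), an adaptor that restrains insulin and IGF receptor signalling, is expressed from different parental copies in different tissues. It was at 71.5, 63.8 and 64.7 TPM in Cond 1, 61.5, 72.7 and 71.0 TPM in Cond 2, 59.4, 60.8 and 59.6 TPM in Cond 3 and 73.8, 74.8 and 77.8 TPM in Cond 4. It fell in Cond 3 by 0.18 on the log2 scale (SE 0.0579, adjusted p = 0.0159). This call was lost without Cond 1 replicate 1 (adjusted p = 0.105), without Cond 3 replicate 1 (adjusted p = 0.0558) and with limma on TPM (adjusted p between 0.0907 and 0.179). Cond 4 lay above every control library, and its log2 fold change of 0.17 (SE 0.0577) had an unadjusted p of 0.00853 and an adjusted p of 0.751 in the fit of edgeR over all genes.

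PLAGL1 (ENSG00000118495, chromosome 6, 143940300 to 144064599, - strand), a paternally expressed zinc finger factor, was the lowest of the tested genes. Its libraries had 34, 24 and 49 reads in Cond 1, 49, 57 and 48 in Cond 2, 42, 32 and 31 in Cond 3 and 15, 53 and 70 in Cond 4. In TPM the 3 libraries of Cond 2 lay between 1.11 and 1.14, above the control range of 0.582 to 0.958, with a log2 fold change of 0.50 that did not pass (SE 0.362, adjusted p = 0.381). At this depth a change of this size could not be told from the spread between libraries. HYMAI, the noncoding RNA that starts with PLAGL1, had a mean under 0.1 TPM in each condition.

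In TPM, a scale per exon length, the order of the 10 genes changed between conditions. In Cond 1 it was MEST (118 ± 2.87), SNRPN (116 ± 10.1), PEG10 (67.9 ± 4.62), GRB10 (66.7 ± 4.19), NNAT (51.6 ± 4.9), MEG3 (44.1 ± 11.1), DLK1 (5.55 ± 4.34), PLAGL1 (0.749 ± 0.191), PEG3 and H19 (SD, n = 3). The ranges of MEST and SNRPN, of PEG10 and GRB10, and of NNAT and MEG3 overlapped, so these neighbours did not differ beyond their spread. In Cond 2, NNAT (202 ± 8.83) and MEST (187 ± 4.82) came first and DLK1 (123 ± 33.7) moved to the third place, where its range overlapped those of SNRPN (118 ± 7.17) and PEG10 (97.7 ± 7.14). In Cond 3, PEG10 (118 ± 3.65) was first, ahead of MEST (111 ± 2.94), and DLK1 (4.01 ± 0.701) was again below MEG3 (36.0 ± 0.106).

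The TPM of all 3 libraries lay outside the range of Cond 1 for 5 of the 8 tested genes in Cond 2, all above, beside 35.7% of all tested genes. In Cond 3 this held for 5 of 8, with PEG10 and NNAT above and MEST, SNRPN and GRB10 below, beside 48.6%. In Cond 4 it held for 2, MEST and GRB10, both above, beside 11.9%. No member was a DEG or passed on the adjusted p-value in Cond 4, where 0.0169% of all genes were DEGs and where 1 of 8 passed at an unadjusted p under 0.05 with edgeR and 2 of the 10 entered with DESeq2. Between Cond 3 and Cond 2, DLK1 and NNAT were DEGs, both lower in Cond 3, beside 8.77% of all genes. MEST and SNRPN were lower in Cond 3 by 1.62-fold and 1.3-fold and PEG10 was higher, all with an adjusted p under 0.05 and without a 2-fold change.

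The genes that moved most like DLK1 were taken by the Euclidean distance between the 3 log2 fold changes against Cond 1, over 16397 tested genes with a mean of at least 1 TPM in some condition. The 3 fold changes share the libraries of Cond 1. They were GATA3 (distance 0.337), RF02246 (0.585), LINC01833 (0.688), LHX5-AS1 (0.827) and RAX (0.878). The log2 fold changes of GATA3 were 4.66 in Cond 2, -0.65 in Cond 3 and 0.05 in Cond 4. For MEG3 the nearest were TBC1D7 (0.0344), CCDC90B (0.0428), FAM72B (0.0441), CHMP5 (0.0459) and ADORA2B (0.047), at distances much smaller than those of DLK1, as its fold changes lie near those of most genes.

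The neuroectoderm and trophoblast marker sums rose with DLK1 in Cond 2. Both were also above the control in Cond 3, where DLK1 was not. The 6 neuroectoderm markers summed to 22.8 to 34.0 TPM in Cond 1, 458 to 751 TPM in Cond 2, 59.8 to 78.0 TPM in Cond 3 and 30.4 to 49.4 TPM in Cond 4. Within this list LHX5, SIX3 and HESX1 carried the sum in Cond 2, at means of 262, 158 and 172 TPM. PAX6 and SOX1 stayed under 1 TPM in every library, and OTX1 overlapped the control in Cond 2. In Cond 3 the list was split. LHX5 and HESX1 lay above the control, at means of 32.3 against 7.93 TPM and 30.1 against 17.0 TPM. SIX3 overlapped the control like DLK1, at 2.7 against 2.39 TPM, and OTX1 lay below it, at 1.31 against 2.32 TPM. The 7 trophoblast markers summed to 22.5 to 24.3 TPM in Cond 1, 34.8 to 48.1 TPM in Cond 2, 31.2 to 36.3 TPM in Cond 3 and 20.5 to 24.7 TPM in Cond 4, most of it from KRT7, with VGLL1 at 0 in all libraries. On this list are GATA3, which rose 25.3-fold in Cond 2 (adjusted p = 1.59e-06), and TFAP2A, which rose 28.7-fold in Cond 2 and 4.85-fold in Cond 3 (adjusted p = 3.86e-08 and 0.00108). GATA3 was found as the gene nearest to DLK1 by these same fold changes, so its likeness to DLK1 follows from that choice. CGA, CGB5 and HAND1 of the list overlapped the control in Cond 2, at means under 1 TPM. The 7 mesendoderm markers stayed between 1.21 and 4.48 TPM in every library, with FOXA2 at 0. The sum of the 8 fibroblast markers was 424 to 456 TPM in Cond 1, lower in Cond 2 at 265 to 314 TPM, higher in Cond 3 at 587 to 624 TPM and 384 to 408 TPM in Cond 4. In Cond 2, COL1A1, COL1A2 and THY1 fell to 0.7, 0.753 and 0.404 of the control, while PDGFRB, at 1.01-fold, and COL3A1, at 1.33-fold, did not pass. In Cond 3, COL1A1, COL1A2 and POSTN rose 1.74-fold, 2.29-fold and 13.4-fold and THY1 fell to 0.34. The part of these marker changes in the values of DLK1 and NNAT was not tested.

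**Figure D4:**
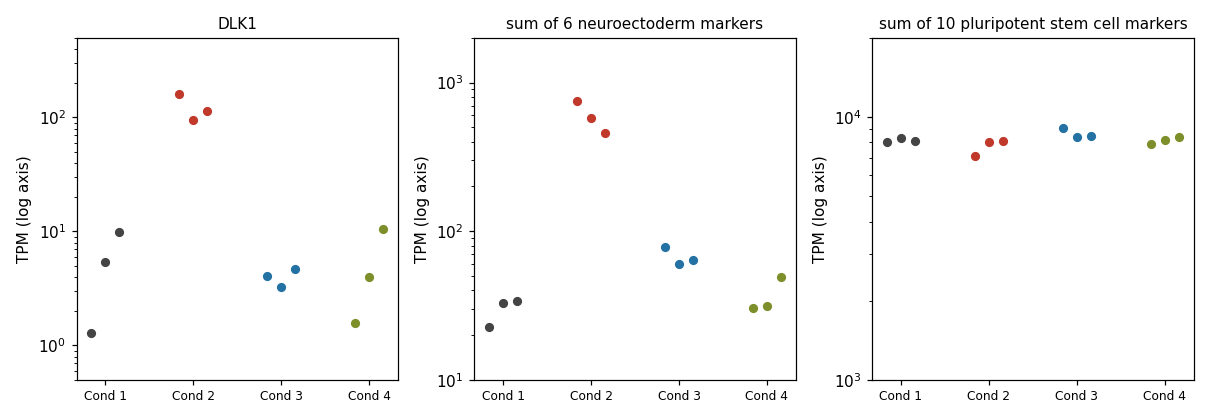
TPM (log axes) of DLK1, of the sum of 6 neuroectoderm markers and of the sum of 10 pluripotent stem cell markers in each library. DLK1 and the neuroectoderm sum are highest in the 3 libraries of Cond 2, while the pluripotent sum stays between 7070 and 9090 TPM although NANOG and TDGF1, which are part of it, fell in Cond 2.

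Of 45 further imprinted genes, 27 had enough reads to be tested. In Cond 2, 1 of the 27 was a DEG, RTL1, and 5 passed on the adjusted p-value, all higher, beside 20.9% of all genes, which besides RTL1 were PPP1R9A (log2 fold change 0.55), IGF2R (0.31), GNAS (0.29) and INPP5F (0.28). The median log2 fold change of the 27 was 0.028. In Cond 3, 2 were DEGs and higher, MEG8 and CALCR, beside 4.85% of all genes as higher DEGs, and 1 was lower, SLC22A18. CALCR, the calcitonin receptor, had 2 to 4 reads in Cond 1 and 12 to 24 in Cond 3 (log2 fold change 2.71, adjusted p = 0.00666) and stayed under 1 TPM in the mean. CALCR and SLC22A18, too, were no DEGs with limma on log2(TPM + 0.1). On log2(TPM + 1), their levels near or under 1 TPM left little room for a 2-fold change. The form limited to genes with at least 1 TPM in every library left both out. SLC22A18 of the KCNQ1-CDKN1C cluster had 23, 30 and 34 reads in Cond 1 and 9, 5 and 19 in Cond 3 (log2 fold change -1.48, adjusted p = 0.0167). This call was lost without Cond 1 replicate 2, Cond 3 replicate 1 or Cond 3 replicate 2, and 90.37% of its 31-base words also occur on alternate haplotype sequences, which may take reads from it. In Cond 3, 11 of 27 passed on the adjusted p-value, 7 higher and 4 lower, beside 38.4% of all genes, with a median of -0.047. In both conditions the share of the 27 was close to that of all genes. In Cond 4 none of the 27 passed with edgeR, and 0 did at an unadjusted p under 0.05 with either edgeR or DESeq2. CALCR, PPP1R9A, IGF2R, GNAS, INPP5F, MAGEL2 and UBE3A were named after their values were seen.

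**Figure D5:**
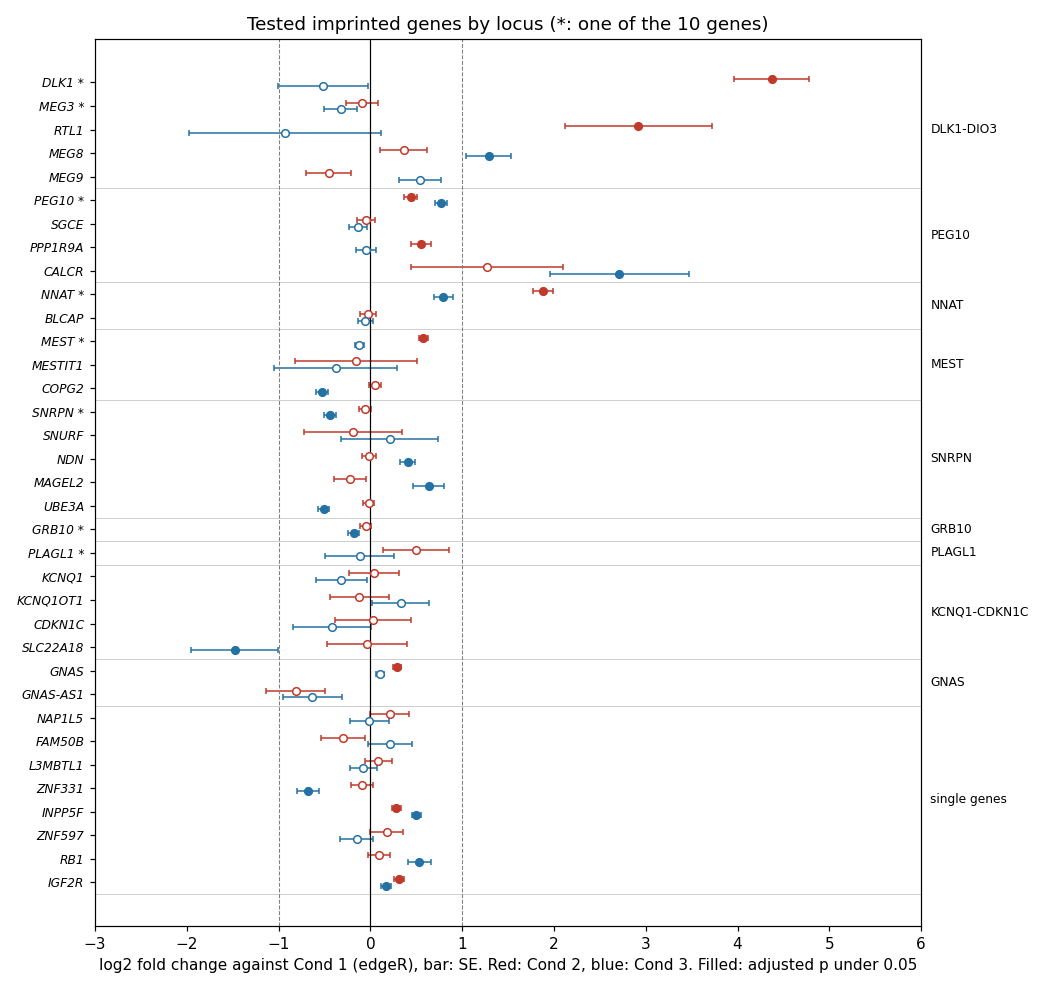
Log2 fold changes (horizontal axis) of the tested imprinted genes in Cond 2 (red) and Cond 3 (blue) against Cond 1, ordered by cluster, with the standard error as a bar and filled points for an adjusted p under 0.05. DLK1 (4.37) and RTL1 (2.92) have the highest values of Cond 2, and members of 1 cluster, such as NDN and SNRPN, lie on both sides of 0 in Cond 3.

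Of 7 factors that maintain imprints, 6 could be tested. UHRF1, which brings DNMT1 to newly replicated DNA, rose by 1.8 on the log2 scale in Cond 3 (SE 0.0685, adjusted p = 7.11e-15), and DNMT1, the maintenance methyltransferase, rose by 0.43 (adjusted p = 1.71e-07). ZNF445, a zinc finger protein of imprint maintenance, fell in Cond 3 by 0.26 (adjusted p = 0.00772) and rose in Cond 2 by 0.23 (adjusted p = 0.027). UHRF1 also rose in Cond 2, by 0.50 (adjusted p = 9.76e-06). DPPA3, a protein that counteracts UHRF1, had 1, 10 and 4 reads in Cond 1 and 26, 22 and 25 in Cond 2, a log2 fold change of 2.19 (SE 0.682, adjusted p = 0.0238). TRIM28 and CTCF passed in neither condition. Of the 31-base words of UHRF1 and DPPA3, 52.87% and 67.04% occur elsewhere in the genome, so their counts are uncertain. ZFP57 was listed at 0 in all libraries, and 100% of its words also occur on alternate haplotype sequences.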

How the data were processed

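RNA-Seq was measured in 12 libraries of 201B7, 3 for each of 4 conditions. The authors prepared strand-specific poly(A) libraries, removed adapters and poor bases, mapped the reads with HISAT2 2.1.0 to GRCh38 and obtained gene counts from featureCounts. The deposited read counts per gene are whole numbers without normalization. The TPM values deposited by the authors are these counts per gene length at a fixed library total, and values recomputed from the counts deviated by at most 1.79e-14 in relative terms. Of 58580 lines of the count table, 5 held no whole gene row and were left out, and 2042 genes of the TPM table had no count row, among them SNHG14.

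For testing, genes with few counts were removed with filterByExpr, TMM factors were computed, and a single edgeR 4.0.16 model (R 4.3.3) of all 12 libraries gave quasi-likelihood F tests, with adjustment by Benjamini-Hochberg over all 17747 tested genes. The SE is the absolute log2 fold change divided by the square root of F. Alternatives were DESeq2 1.42.0, limma 3.58.1 on log2(TPM + 1) and log2(TPM + 0.1), upper-quartile normalization, no filter, 6 libraries alone, a replicate block, other thresholds and each library left out. The methods were tested on simulated data.

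The members and lists were chosen with earlier results of these data known. Genes named are all 10 members, the neighbours in their clusters, DEGs among 45 other imprinted genes with a mean of at least 1 TPM in some condition, at most 10, and the 5 nearest genes of DLK1 and of MEG3, with further names marked as chosen after their values were seen. Coordinates are those of GENCODE release 44. Total counts between 16441148 and 21871503 limit the precision of genes with few reads, such as PLAGL1 and RTL1. Sequence copies of a gene are given as the percentage of its 31-base words found on 261 alternate haplotype sequences or elsewhere in the primary assembly. Promoter sequences are from RefSeq on GRCh38.p14, with windows for 6 of the 10 members.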

Additional observations from a re-analysis of the deposited data

How the results depend on the processing

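DLK1 and NNAT were the DEGs of Cond 2 against Cond 1, and of Cond 3 against Cond 2, among the members in all fits run, and none was a DEG in Cond 3 or Cond 4 against Cond 1. On the adjusted p-value alone, between 3 and 6 members passed in Cond 3 against Cond 1 over the alternatives, which tested from 7 to 10 members. Without a threshold on the fold change, 4, 4 and 5 of 8 members passed in Cond 2 against Cond 1, Cond 3 against Cond 1 and Cond 3 against Cond 2. Of the 27 other imprinted genes, 5 and 11 passed in Cond 2 and Cond 3 against Cond 1. Beside these stood 20.9% and 38.4% of all genes in Cond 2 and Cond 3 against Cond 1. The share of all genes was not computed for Cond 3 against Cond 2 or for the alternatives. On log2(TPM + 1), with or without the TPM filter, 0 other imprinted genes were DEGs in Cond 2 or Cond 3, and on log2(TPM + 0.1) 0 in Cond 3. Adding 1 shrinks fold changes of genes near or under 1 TPM, and the filter left out RTL1, MEG8, CALCR and SLC22A18. Leaving out single libraries, the DEGs among other imprinted genes in Cond 2 numbered 0 to 2, with 0 without Cond 1 replicate 1 or Cond 2 replicate 1 and 2 (RTL1 and GNAS-AS1) without Cond 2 replicate 2.

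Changes of sign were found only for fold changes that had not passed. Leaving out single libraries gave log2 fold changes between -1 and 0.287 for DLK1 in Cond 3 and between -1.01 and 0.759 for DLK1 in Cond 4. The ranges of MEG3 were -0.45 to 0.143 in Cond 2, -0.0822 to 0.237 in Cond 4 and -0.468 to 0.125 between Cond 3 and Cond 2. Those of PEG10 and NNAT in Cond 4 were -0.0316 to 0.112 and -0.143 to 0.0131, those of SNRPN were -0.136 to 0.00567 in Cond 2 and -0.0283 to 0.114 in Cond 4, and those of GRB10 in Cond 2 and PLAGL1 in Cond 3 were -0.0878 to 0.00146 and -0.267 to 0.113. On TPM, SNRPN in Cond 2 was at 0.0272 or, with the smaller pseudocount, 0.0275, and GRB10 at 0.0348 or 0.0353. The log2 ratio of DLK1 to MEG3 in Cond 3 lay between -0.741 and 0.727 when single libraries were left out. The cause of these changes was not tested.

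The replicate numbers were not taken to pair the libraries, since deviations of same-numbered libraries correlated between -0.0131 and 0.0379. With the replicate block the DEGs among members numbered 2 in Cond 2, 0 in Cond 3 and 0 in Cond 4 against Cond 1, and 2 in Cond 3 against Cond 2, and DLK1 in Cond 2 was at 4.52. In Cond 4 each library correlated best with the same-numbered library of Cond 1, which is a hint from the data and not from the design. The planned ratio of H19 to IGF2 and the sum of PEG3 and ZIM2 were not computed, because both genes of each pair had at most 9 reads in any library.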

Other observations

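DLK1 differed little between same-numbered libraries of Cond 1 and Cond 4, although it differed several-fold between numbers. It was at 1.28 and 1.57 TPM in the libraries numbered 1, 5.41 and 3.97 TPM in those numbered 2, and 9.95 and 10.6 TPM in those numbered 3. The higher of each pair was 1.07 to 1.36 times the lower. SIX3, the forebrain transcription factor of the neuroectoderm list, ran in the same order, with 0.736 and 1.01, 2.34 and 2.44, and 4.09 and 5.18 TPM. LHX5 of the same list did not, with 4.27 and 8.9, 10.2 and 9.29, and 9.36 and 13.3 TPM. MEG3 was at 50.4 and 50.7, 31.3 and 49.2, and 50.6 and 44.9 TPM. The genes were picked after their values were seen. The study describes the 4 conditions as wells of the same plate, in an arrangement of several plates carried out 3 times. It does not tie a replicate number to a plate. In Cond 2 and Cond 3 the order over numbers was another, with 160, 95.2 and 113 TPM and 4.07, 3.27 and 4.67 TPM of DLK1.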
